A study of Homo sapiens with 4 samples.

Results

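The 10 genes described here encode amino-acid carriers of the plasma membrane from the solute carrier (SLC) families: SLC7A5, SLC3A2, SLC43A1, SLC7A11, SLC7A1, SLC1A4, SLC1A5, SLC38A1, SLC38A2 and SLC6A9. They were chosen by gene symbol, several of them being known targets of the transcription factor ATF4, and all 10 were found among the 60623 genes of the count files. Gene expression was measured by RNA-seq in the established human line BICR10, derived from a head and neck cancer and infected with lentivirus, in order to examine what silencing of YEATS2, a reader of acylated histones, does to the transcriptome. In the 2 shControl libraries the lentivirus carried a control hairpin, in the 2 shYEATS2 libraries it carried a small hairpin RNA (shRNA) against YEATS2, and cells of both groups had been selected with puromycin. The study describes its replicates in general as biological, but the labels do not give which YEATS2 hairpin was used or whether the libraries of a group came from separate cultures, so the p-values measure the spread between these libraries.

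Amino acids cross the plasma membrane mostly through carriers. Some carriers exchange one amino acid for another, whereas others couple uptake to the sodium gradient, and the light chains of the SLC7 family that pair with the heavy chain SLC3A2 reach the cell surface as a disulfide-linked pair. When amino acids are short or the endoplasmic reticulum is stressed, kinases that phosphorylate the initiation factor eIF2α lower general translation and raise translation of ATF4, which binds C/EBP-ATF response elements (CARE) in genes for amino-acid carriers, aminoacyl-tRNA synthetases and amino-acid synthesis.

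The letters of the CARE half-sites, TGATGNAA on either strand, were looked for in the RefSeq promoter windows (build GRCh38.p14) from 250 bases before to 50 bases after each listed start site, because these carriers were grouped partly as ATF4 targets. A window was listed for 9 of the 10 genes, all but SLC7A11, and 5 of these 9 genes (55.6%) held the letters, beside 1217 of 27305 genes with a window (4.46%). The 9 genes had 16 windows, of which 5 (31.2%) held the letters, beside 1270 of 35116 windows (3.62%). The matches are given 5′ to 3′ on the strand of the gene, with the 8 matching bases in capitals.
SLC1A4: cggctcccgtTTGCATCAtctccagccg
SLC1A5: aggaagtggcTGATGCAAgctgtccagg
SLC38A1: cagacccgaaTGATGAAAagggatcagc
SLC3A2: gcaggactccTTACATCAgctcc
SLC7A1: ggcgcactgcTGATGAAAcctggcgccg
The coordinates and strands in parentheses are those of the whole printed stretch, on the strand of the gene. The SLC1A4 match (chr2:64989382-64989409, plus strand) lay on the strand opposite to the gene. Its first base was 7 bases upstream of the start site (position −7, the start site being 0). The SLC1A5 match (chr19:46784894-46784921, minus strand) began at position −97 from 1 of the 3 listed start sites of the gene. The SLC38A1 match (chr12:46266503-46266530, minus strand) began at position −4, the SLC7A1 match (chr13:29595664-29595691, minus strand) at position 7 within the transcript, and the SLC3A2 match (chr11:62881726-62881748, plus strand), on the opposite strand, at position 37. The windows of SLC7A5, SLC38A2, SLC6A9 and SLC43A1 did not hold these letters. None of the 5 matches overlapped a match to the antioxidant response element (TGACNNNGC), found in 4 of the 9 genes (44.4%, beside 16.1% of all genes), or to the E-box CACGTG, found in 3 of them (33.3%, beside 8.77%). A match of letters is a description of the window and not a measured binding site, and since several carriers were chosen as ATF4 targets their share is no independent evidence.

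The libraries held 47297970 and 39824898 counts on genes in shControl and 24072396 and 11334133 in shYEATS2, so depth was lower in both shYEATS2 libraries. Levels are given as CPM (counts scaled to a common library total) normalized with TMM, a factor that removes differences in library composition, and a gene was called higher or lower at a Benjamini-Hochberg adjusted p under 0.05 in edgeR's quasi-likelihood test over 17058 genes. YEATS2 itself was at 66.1 and 66.7 CPM in shControl and at 29.2 and 29.1 CPM in shYEATS2 (log2 fold change −1.19, SE 0.08, adjusted p = 3.6e-21 by that test). The summed level of 13 squamous and epithelial markers was 594 and 591 CPM in shControl and 348 and 325 CPM in shYEATS2. Of the 11 tested, 1 was called higher and 8 lower (9.09% and 72.7%, beside 22.6% and 23.6% of all tested genes). The 1 called higher was CDH1, which went from 0.353 and 0.318 CPM to 2.84 and 2.12 CPM (log2 fold change 2.91). KRT6A fell most, from 55.0 and 58.2 CPM to 1.38 and 2.21 CPM (log2 fold change −5.09), KRT8 fell from 269 and 264 CPM to 123 and 115 CPM (−1.16), SFN was at 126 to 136 CPM in all 4 libraries, and the defining markers TP63 and KRT17 were at or near 0 (at most 0.255 and 0.397 CPM). The 10 fibroblast and mesenchymal markers summed to 8853 and 8804 CPM in shControl and 4213 and 3939 CPM in shYEATS2, most of it from collagens and vimentin. Of the 9 tested, 1 was called higher and 7 lower (11.1% and 77.8%). COL3A1 fell from 1043 and 1026 CPM to 242 and 227 CPM (−2.14) and DCN from 316 and 327 CPM to 85.7 and 81.8 CPM (−1.94), VIM (0.18) was the marker called higher, a call lost without shControl library 1, shControl library 2 or shYEATS2 library 1, and THY1 was near 0 (at most 0.287 CPM). The 4 endothelial markers summed to 35.5 and 36.4 CPM in shControl and 18.6 and 19.6 CPM in shYEATS2, nearly all of it KDR (33.8 and 35.1 against 17.0 and 17.4 CPM, called lower), with CDH5 at 0 in 3 libraries. The 5 immune markers summed to at most 1.79 CPM, with CD3E and CD68 at 0 in all 4. In bulk RNA fewer cells of a type and less RNA per cell cannot be told apart, and the part of these shifts in the levels of the carriers was not tested.

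Of the 10 carriers, 8 were called higher on YEATS2 silencing and 0 lower, while 22.6% of all tested genes were called higher and 23.6% lower. The same 8 had both shYEATS2 libraries above both shControl libraries, as did 35.3% of all tested genes. Leaving out shControl library 1 reduced the 8 to 7 by the loss of SLC38A2, whereas the other settings tried, counts thinned to the smallest library among them, gave 8. The median log2 fold change of the 10 was 0.49, beside −0.01 over all tested genes, and 6 of them lay above the 80th percentile of all tested changes. A rise of at least 2-fold was seen in 3 of them (SLC1A4, SLC6A9 and SLC7A5), a size and call that 5.99% of all tested genes had. Their summed level went from 3137 and 3298 CPM to 4222 and 4205 CPM, which before any scaling was 0.301% and 0.313% of all reads on genes in shControl and 0.444% and 0.437% in shYEATS2 (exact two-sided permutation p = 0.333, the smallest that 2 against 2 libraries allow).

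**Figure D1:**
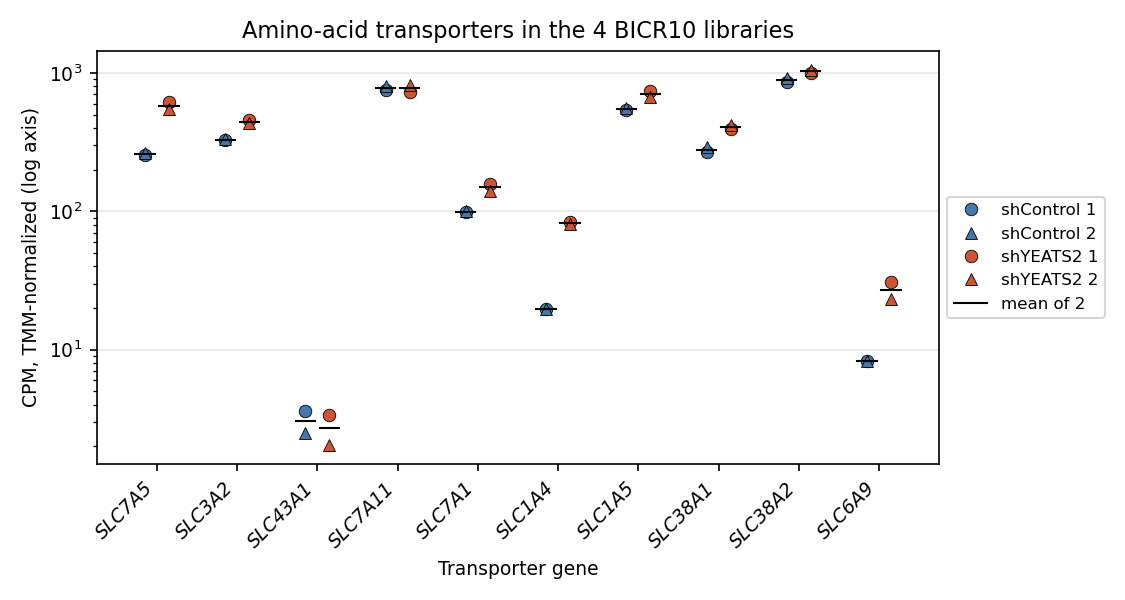
Level of each carrier (TMM-normalized CPM, log axis) in the 4 libraries, with circles for library 1, triangles for library 2 and a line for the mean of each group. The shYEATS2 points lie above both shControl points for 8 carriers, from SLC6A9 at 8.22 and 8.28 CPM against 30.8 and 23.4 CPM to SLC38A2 at 857 and 919 CPM against 1007 and 1061 CPM, and the groups overlap for SLC7A11 and SLC43A1.

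System L brings leucine and other large neutral amino acids into the cell, and its main carrier in proliferating cells is LAT1, the product of SLC7A5 (chromosome 16, 87830023 to 87869507, minus strand; GRCh38, GENCODE 44, as for all gene positions here). SLC7A5 was at 254 and 264 CPM in the shControl libraries and at 617 and 548 CPM in the shYEATS2 libraries. The groups lay far apart, and the shYEATS2 libraries differed from each other by more (0.17 lower in library 2 on the log2 scale) than the shControl libraries did (0.06 higher). The level rose 2.25-fold, from 259 ± 7.20 to 582 ± 48.7 CPM (SD, n = 2 each; log2 fold change 1.17, SE 0.06, edgeR quasi-likelihood adjusted p = 3.9e-26). Only 14, 21, 20 and 5 counts fell on the antisense RNA ENSG00000260466, which shares 271 exonic bases with SLC7A5. The near-identical pseudogene SLC7A5P1 had 13, 11, 13 and 7 counts and SLC7A5P2 had 0, against 6459 to 15628 counts for SLC7A5 itself, and read pairs that matched both copies equally would not have been counted.

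SLC3A2 (chromosome 11, 62856004 to 62888880, plus strand), also called CD98, encodes the heavy chain that carries LAT1 and other light chains to the membrane. It was at 326 and 333 CPM in shControl and at 455 and 436 CPM in shYEATS2. Both shYEATS2 libraries were above both controls, and replicates differed by at most 0.06 on the log2 scale. The rise was 1.35-fold, from 330 ± 4.95 to 445 ± 13.6 CPM (SD, n = 2 each; log2 fold change 0.43, SE 0.06, edgeR adjusted p = 3.3e-09). This was smaller than the rise of SLC7A5, whose 95% interval of 1.05 to 1.29 on the log2 scale did not reach that of SLC3A2, 0.32 to 0.55.

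SLC43A1 (chromosome 11, 57484534 to 57515780, minus strand) encodes LAT3, a system L carrier that works by facilitated diffusion without a heavy chain. It was near the lower end of what was measured, with 3.59 and 2.51 CPM in shControl (163 and 95 counts) and 3.39 and 2.04 CPM in shYEATS2 (86 and 24 counts). The groups overlapped, and in each group library 2 was lower than library 1, by 0.52 and 0.74 on the log2 scale. The log2 fold change of −0.09 (SE 0.23, 95% interval −0.55 to 0.37, edgeR adjusted p = 0.77) was not called, and scaling by library totals alone gave 0.04. At these counts any change inside that interval remained possible. Summed per kilobase of exon, 4 genes of system L (SLC7A5, SLC7A8, SLC43A1 and SLC43A2) stood at 58.4 and 60.1 CPM per kb in shControl and at 134 and 119 CPM per kb in shYEATS2, nearly all of it SLC7A5.

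SLC7A11 (chromosome 4, 138164097 to 138242349, minus strand) encodes xCT, which imports cystine in exchange for glutamate, feeds the synthesis of glutathione and also pairs with SLC3A2. It was at 757 and 802 CPM in shControl and at 728 and 826 CPM in shYEATS2, so that the shYEATS2 libraries stood on either side of the controls. Means were 779 ± 31.7 and 777 ± 68.9 CPM (SD, n = 2 each), and the log2 fold change of −0.0059 (SE 0.06, edgeR adjusted p = 0.95) was not called and was above 0 with 3 other scalings, the largest being 0.13 with library totals alone. The 95% interval of −0.13 to 0.11 lay wholly below that of SLC7A5, and counts were high, with 9731 to 34339 per library. The antisense gene SLC7A11-AS1, which shares 691 exonic bases with it, had 138, 134, 93 and 55 counts (log2 fold change 0.30, SE 0.20, edgeR adjusted p = 0.22).

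Because SLC3A2 is shared by several light chains, its level was set against theirs, per kilobase of exon so that genes of unlike length can be compared. The 6 light chains that pair with it (SLC7A5, SLC7A6, SLC7A7, SLC7A8, SLC7A10 and SLC7A11) summed to 145 and 152 CPM per kb in shControl and to 217 and 213 CPM per kb in shYEATS2, with SLC7A7 at no more than 4 counts and SLC7A10 at 0. SLC7A5 made up 36.7% and 36.5% of this sum in shControl and 59.7% and 54.0% in shYEATS2, and SLC7A11 54.1% and 54.7% against 34.8% and 40.2%. Per kb, the more abundant light chain was thus SLC7A11 in both shControl libraries and SLC7A5 in both shYEATS2 libraries. The ratio of SLC7A5 to SLC7A11 per kb went from 0.679 and 0.666 to 1.71 and 1.34. This change of order depended on the division by exon length, 9645 bases for SLC7A11 and 4764 for SLC7A5. In CPM not divided by length, SLC7A11 was above SLC7A5 in every library of both groups. SLC3A2 over the sum of light chains was 0.352 and 0.343 in shControl and 0.328 and 0.320 in shYEATS2, a log2 difference of −0.10 that became 0.08 when CPM were not divided by length. For each of these ratios the groups did not overlap, and the exact two-sided permutation p was 0.333, the smallest possible.

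**Figure D2:**
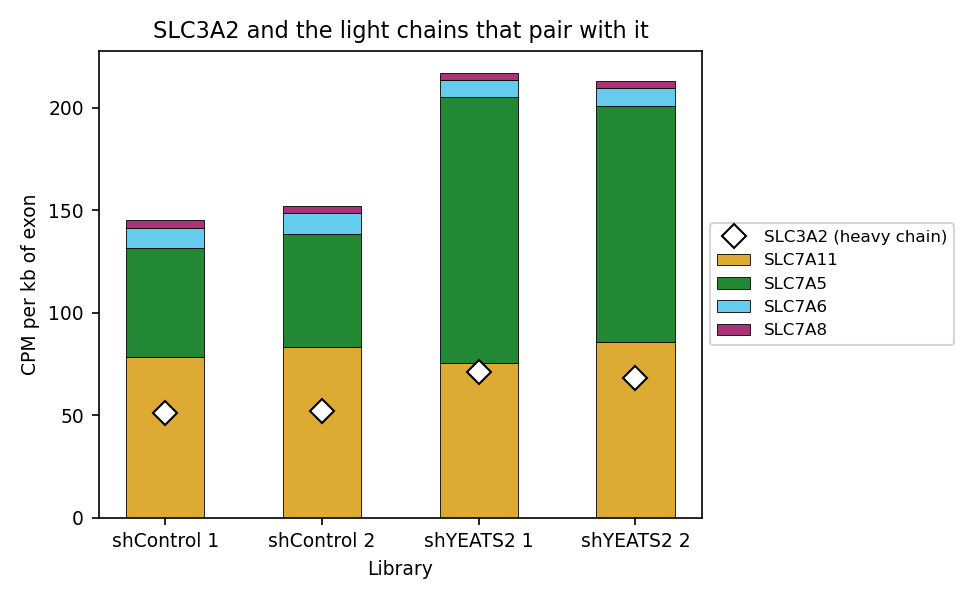
Stacked bars give the level of each light chain of SLC3A2 in each library (CPM per kb of exon, axis from 0), and the diamonds give SLC3A2. The sum goes from 145 and 152 in shControl to 217 and 213 in shYEATS2, with the added height in SLC7A5, while SLC7A11 keeps a like height in all 4 libraries.

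SLC7A1 (chromosome 13, 29509414 to 29595688, minus strand) encodes CAT-1, the main importer of arginine, lysine and ornithine in most cells other than liver. It was at 98.2 and 101 CPM in shControl and at 159 and 139 CPM in shYEATS2. The groups were clear of each other, with shYEATS2 library 1 the highest. The rise was 1.503-fold, from 99.6 ± 1.99 to 149 ± 13.6 CPM (SD, n = 2 each; log2 fold change 0.59, SE 0.06, edgeR adjusted p = 7.7e-12). SLC7A2, a second cationic carrier, was at 36.6 and 35.7 CPM in shControl and at 34.8 and 42.0 CPM in shYEATS2 and was not called (log2 fold change 0.07, edgeR adjusted p = 0.55).

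SLC1A4 (chromosome 2, 64988477 to 65023865, plus strand) encodes ASCT1, which exchanges alanine, serine, cysteine and threonine. It showed the largest rise of the 10 carriers, with 19.7 and 19.8 CPM in shControl and 83.8 and 80.7 CPM in shYEATS2. The replicates of each group lay close together, and the 4 possible pairs of a shYEATS2 with a shControl library gave log2 differences between 2.03 and 2.09. Means went from 19.8 ± 0.0634 to 82.3 ± 2.23 CPM (SD, n = 2 each), a 4.17-fold rise (log2 fold change 2.06, SE 0.08, edgeR adjusted p = 5.1e-34) that ranked 434 by size among the 17058 tested genes. Over the 4 libraries, the genes whose centred log2 CPM lay nearest to SLC1A4 among 9364 genes of at least 10 CPM were DDIT3, DUSP4, DMD, DUSP5 and SLC9A7, at Euclidean distances of 0.0504, 0.0657, 0.0822, 0.124 and 0.149. With 4 libraries in 2 groups such a distance mostly reflects the size of the difference between the groups.

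SLC1A5 (chromosome 19, 46774883 to 46788594, minus strand) encodes the related ASCT2, a major route of glutamine exchange in tumour cells. It was at 543 and 559 CPM in shControl and at 744 and 670 CPM in shYEATS2, the groups being separate. The rise was 1.28-fold, from 551 ± 10.8 to 707 ± 52.6 CPM (SD, n = 2 each; log2 fold change 0.36, SE 0.06, edgeR adjusted p = 4.8e-07). Per kb, the ratio of SLC1A5 to SLC1A4 was 57.4 and 58.7 in shControl but 18.5 and 17.3 in shYEATS2, so the more abundant of the 2 related carriers stayed ahead by a smaller margin. The antisense RNA ENSG00000275719, which shares 780 exonic bases with SLC1A5, had 208, 142, 149 and 73 counts, against 7892 to 24651 for SLC1A5.

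SLC38A1 and SLC38A2 lie near each other on chromosome 12 (46183063 to 46270017 and 46358188 to 46372773, both minus strand) and encode SNAT1 and SNAT2, sodium-coupled importers of glutamine, alanine and other small neutral amino acids. SLC38A1 was at 270 and 290 CPM in shControl and at 395 and 420 CPM in shYEATS2. It rose 1.45-fold, from 279.8 ± 13.8 to 407 ± 17.6 CPM (SD, n = 2 each; log2 fold change 0.54, SE 0.06, edgeR adjusted p = 5.8e-12). SLC38A2, long known as a gene whose carrier increases when amino acids are withdrawn, was at 857 and 919 CPM in shControl and at 1007 and 1061 CPM in shYEATS2. Its groups did not overlap either, but the pairs of libraries gave log2 differences from only 0.13 to 0.31. The rise was 1.16-fold, from 888 ± 44.01 to 1034 ± 38.2 CPM (SD, n = 2 each; log2 fold change 0.22, SE 0.06, edgeR adjusted p = 0.0014), and without shControl library 1 it was 0.16 with an adjusted p of 0.15. Per kb, the ratio of SLC38A2 to SLC38A1 was 4.88 in both shControl libraries, against 3.92 and 3.89 on YEATS2 silencing.

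SLC6A9 (chromosome 1, 43991500 to 44031467, minus strand) encodes GlyT1, a sodium- and chloride-coupled importer of glycine. It was at 8.22 and 8.28 CPM in shControl and at 30.8 and 23.4 CPM in shYEATS2. All values of shYEATS2 were well above the controls, although the 2 shYEATS2 libraries differed by 0.39 on the log2 scale, where counting error alone gives 0.10. The rise was 3.35-fold, from 8.25 ± 0.0423 to 27.1 ± 5.21 CPM (SD, n = 2 each; log2 fold change 1.74, SE 0.11, edgeR adjusted p = 3.1e-20). CCDC24, which lies on the other strand and shares 219 exonic bases with SLC6A9, moved the opposite way, with 261, 243, 112 and 46 counts (log2 fold change −0.52, edgeR adjusted p = 0.0081). The strand setting of the counting is not given in the sources used here, so reads of such overlapping exons may have been lost or given to the partner gene.

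Ordered by level per kb of exon, SLC1A5 (165 CPM per kb in shControl, 212 in shYEATS2; means of 2 libraries) and SLC38A2 (136 and 159) came first in both groups. In shControl they were followed by SLC7A11 (80.8), SLC7A5 (54.3), SLC3A2 (51.6), SLC38A1 (27.9), SLC7A1 (13.0), SLC1A4 (2.85), SLC6A9 (1.57) and SLC43A1 (0.866). In shYEATS2 SLC7A5 (122) stood before SLC7A11 (80.6), and the rest kept their places, with SLC3A2 at 69.6, SLC38A1 at 40.7, SLC7A1 at 19.4, SLC1A4 at 11.9, SLC6A9 at 5.16 and SLC43A1 at 0.770 CPM per kb. No neighbours in either order had overlapping libraries, the closest being SLC7A5 and SLC3A2 in shControl, where the lowest value of the first was 53.3 and the highest of the second 52.2 CPM per kb. The carriers with the largest rises, SLC1A4 and SLC6A9, thus stood in places 8 and 9 of 10 by level in both groups.

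The other 28 carriers of amino acids at the plasma membrane were examined as a comparison. Only 11 of them were expressed enough to be tested, the remaining 17 having at most 8 counts in any library, and 6 were at 0 in all 4. Of the 11, 1 was called higher and 4 lower (9.09% and 36.4%, beside 22.6% and 23.6% of all tested genes). Their median log2 fold change was −0.15. The 1 that rose was SLC6A15, a sodium-coupled carrier of branched-chain amino acids and proline, at 56.4 and 60.3 CPM in shControl and at 115 CPM in both shYEATS2 libraries (log2 fold change 0.98, SE 0.07, edgeR adjusted p = 2.2e-20). SLC1A3, a glutamate importer, fell from 24.7 and 25.2 CPM to 15.4 and 15.0 CPM (log2 fold change −0.71, edgeR adjusted p = 8.7e-09), the groups lying well apart. The other 3 called lower changed little: SLC43A2 by −0.39 on the log2 scale (edgeR adjusted p = 0.046), SLC7A6, a light chain of SLC3A2, by −0.18 (0.031), and SLC6A6, the taurine carrier and the most abundant of the 11, by −0.15 (0.030). The number called lower depended on the settings, being 1 with library totals alone and 2 without shControl library 1 or without shControl library 2. SLC7A8 (−0.07, adjusted p = 0.61) and the glutamate carrier SLC1A1 (−0.08, adjusted p = 0.44) were not called by the same edgeR test. Of the 20 genes of this group with a promoter window, 1 (5%) held the CARE letters, near the 4.46% of all genes with a window.

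**Figure D3:**
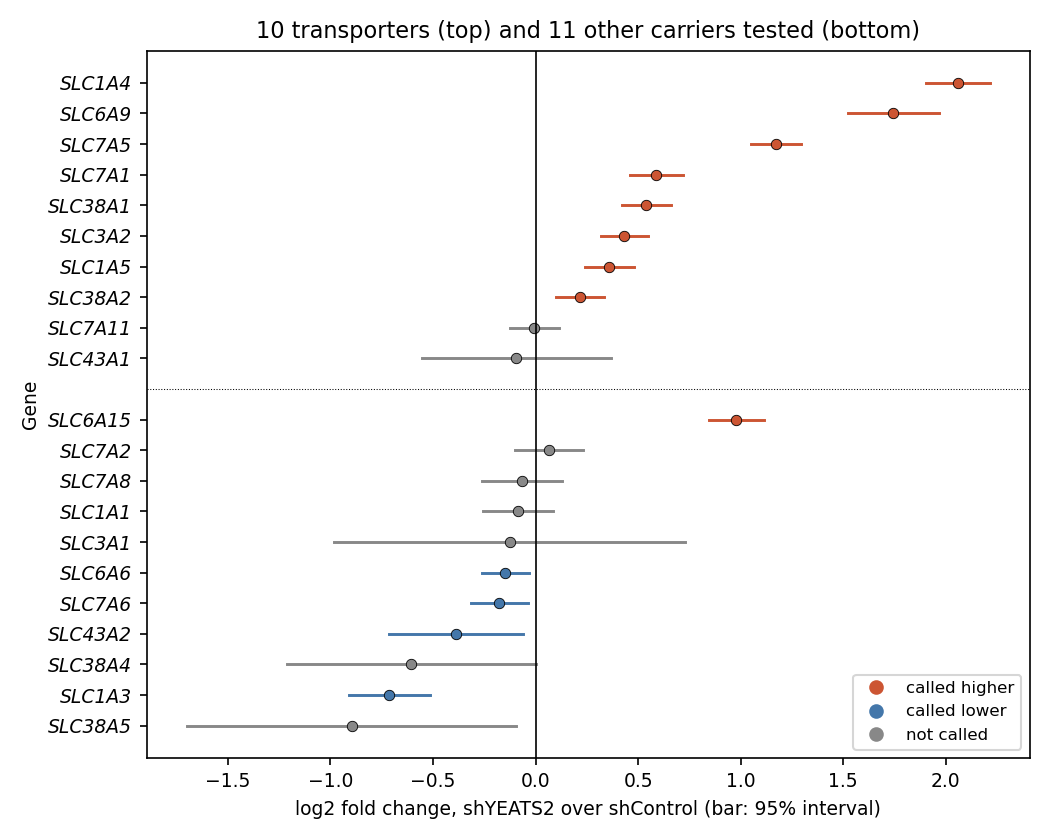
Log2 fold change (shYEATS2 over shControl) with its 95% interval for the 10 carriers (top) and the 11 other carriers tested (bottom), coloured by call. In the top block 8 intervals lie above 0, up to SLC1A4 at 2.06, and in the bottom block SLC6A15 at 0.98 is the only one called higher.

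Inner membranes hold further carriers. Lysosomal carriers return amino acids from protein breakdown to the cytosol, and 9 were tested, with a median log2 fold change of −0.17. Of these 9, 1 was called higher and 4 lower (11.1% and 44.4%, beside 22.6% and 23.6% of all tested genes). The 1 called higher was SLC38A7 (0.22), and those called lower included SLC36A4 (−0.33) and SLC38A9 (−0.28), an arginine sensor of the lysosome. The number called depended on the settings, the DESeq2 test giving 0 higher and 2 lower. Fewer were called without shControl library 1, shControl library 2 or shYEATS2 library 1, and so were fewer of all genes in those fits. The median of the list was then −0.21, −0.15 and −0.21. Of 13 mitochondrial carriers 0 were called higher and 4 (30.8%) lower, among them the aspartate-glutamate carrier SLC25A12 (−0.72) and the serine carrier SFXN1 (−0.63). Their median was −0.05, which turned to 0.08 with library totals alone, where 3 were called higher and 4 lower, and to −0.32, with 6 called lower, without shYEATS2 library 1. Over all 218 other SLC genes tested, 39 (17.9%) were called higher and 68 (31.2%) lower, with a median of −0.07.

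ATF4, the regulator named in the choice of the carriers, was at 188.5 and 185 CPM in shControl and at 407 and 382 CPM in shYEATS2 (log2 fold change 1.08, SE 0.06, edgeR adjusted p = 5.6e-25), its protein level not being measured by RNA-seq. Of 28 genes of the ATF4 response, ATF4 itself included, 24 were called higher and 1 lower, with a median log2 fold change of 1.34. These calls were 85.7% and 3.57% of the list, beside 22.6% and 23.6% of all tested genes. This list was written with results of these libraries known and is no independent evidence of its direction. Its genes CHAC1, CTH, SESN2, GPT2, ASNS and PPP1R15A are also counted in the lists for glutathione, mTORC1, glutamine use and eIF2α. The largest rises were those of ADM2, a secreted peptide hormone (3.03), and CHAC1, which degrades glutathione (2.97), and the gene that fell was ATF5, a transcription factor related to ATF4 (−1.01). Of these 28 genes 21 had a promoter window, of which 4 (19%) held the CARE letters, beside 4.46% of all genes with a window. Among 8 genes for the eIF2α kinases, eIF2α and its phosphatase 2 were called higher, PPP1R15A (1.49) and PPP1R15B (0.48), both of which direct the phosphatase to eIF2α, and 3 lower, among them EIF2S1, the eIF2α subunit itself (−0.33), and EIF2AK2 (−0.25). The 2 higher and 3 lower were 25% and 37.5% of the 8, beside 22.6% and 23.6% of all tested genes. With library totals alone 5 of them were called higher and 1 lower.

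Of 38 genes by which mTORC1 senses amino acids, 7 were called higher and 11 lower (18.4% and 28.9%, beside 22.6% and 23.6% of all tested genes), with a median of −0.07 that became 0.06, with 13 higher and 6 lower, when library totals alone were used, and 7 were called lower without shControl library 2. At a mean of at least 10 CPM, the leucine sensor SESN2 rose most (log2 fold change 2.28), followed by the mTOR inhibitor DEPTOR (0.57). LAMTOR4 (−0.51) and LAMTOR2 (−0.48) of the Ragulator complex fell. Below that level, SESN3 (0.76) was also called higher and KPTN (−0.88) lower. Among 12 genes for cystine and glutathione 4 were called higher and 4 lower (33.3% each, median 0.13), against 7 and 3 (median 0.26) with library totals alone and 6 and 4 without shYEATS2 library 1. The called genes had CHAC1 and CHAC2 (0.47), which split glutathione, on the higher side and GGT7 (−0.75) and the lipid peroxidase GPX4 (−0.37) on the lower. CTH (1.51) and the glutathione synthetase GSS (0.44) were also called higher. Of 13 genes for glutamine use 6 were called higher and 2 lower (median 0.07), or 1 lower without shControl library 2 or with library totals alone. The 6 higher and 2 lower were 46.2% and 15.4% of the list. The alanine aminotransferase GPT2 (0.98) and GFPT1, the first enzyme of hexosamine synthesis (0.88), rose, and glutamine synthetase GLUL (−0.48) fell. ASNS rose more (1.67) at a low level, from 2.36 and 2.62 CPM in shControl to 7.89 and 7.98 CPM in shYEATS2.

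Carriers of other nutrients gave a further comparison. Of 11 genes for glucose and monocarboxylate carriers, 3 were called higher and 4 lower (27.3% and 36.4%, beside 22.6% and 23.6% of all tested genes). Their median was −0.13, or 0.0086 with library totals alone. The glucose carrier SLC2A3 (0.78) and the lactate carrier SLC16A1 (0.21) were higher, and the inositol carrier SLC5A3 (−0.65) and the lactate exporter SLC16A3 (−0.24) lower. Over the list the log2 fold change ranged from −0.87 to 2.89, at both ends in genes not named here. With at least 10 counts required in every library, 10 genes were tested and 2 called higher. Of 13 genes that regulate carriers, 6 were called higher and 3 lower (46.2% and 23.1%). Their median was 0.05, or −0.0038 without shControl library 1. Among them NEDD4L, a ubiquitin ligase that takes carriers off the membrane (1.23), and the transcription factor MYC (1.06), at 70.4 CPM in both shControl libraries and at 159 and 133 CPM in shYEATS2, rose. BSG, the chaperone of the lactate carriers (−0.55), and the deubiquitinase OTUB1 (−0.44) fell. NFE2L2, the regulator of the antioxidant response and of SLC7A11, was at 101 and 109 CPM in shControl and at 140 and 150 CPM in shYEATS2 (log2 fold change 0.46, edgeR adjusted p = 1.2e-08) and was singled out after its values had been seen.

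**Figure D4:**
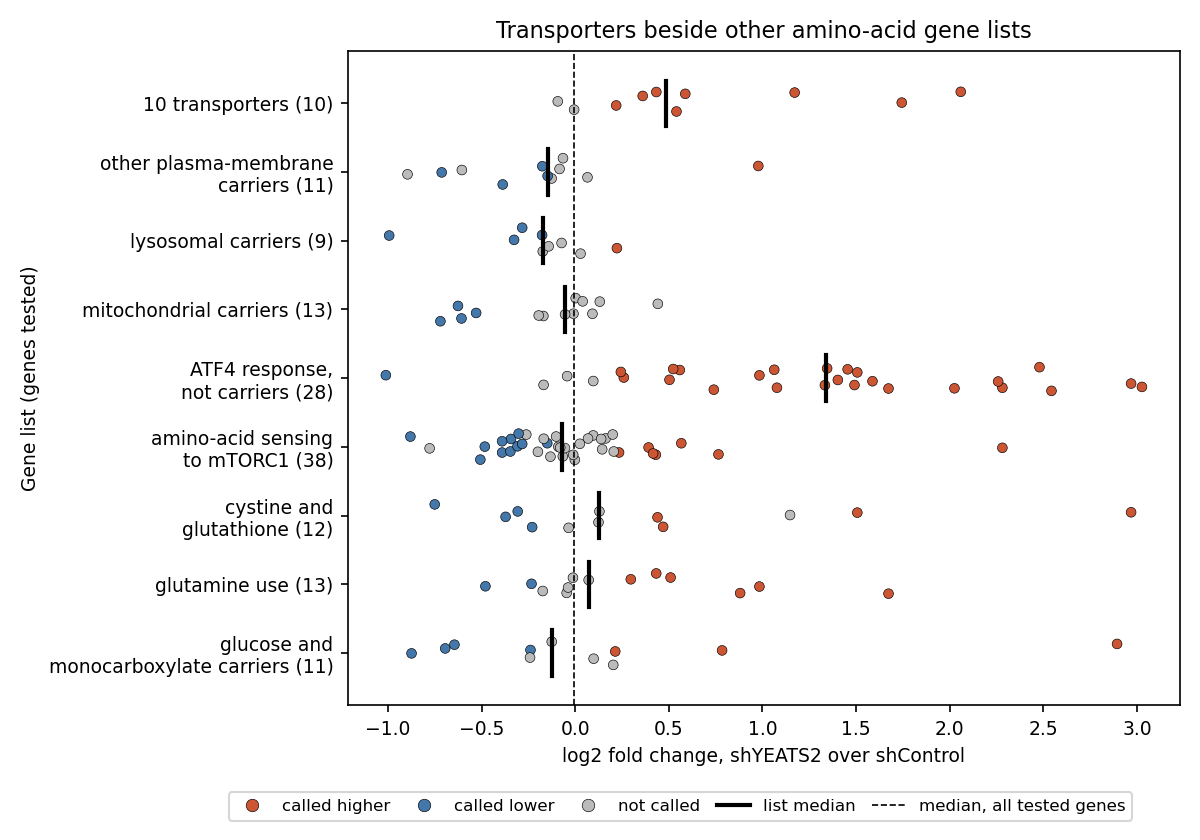
Log2 fold change (shYEATS2 over shControl) of each tested gene in the 10 carriers and in the gene lists compared with them, 1 line per list with the number tested, a bar for its median and a dashed line for the median of all tested genes (−0.01). The medians of the carriers (0.49) and of the ATF4 response (1.34) lie to the right of the dashed line, and those of the lysosomal carriers (−0.17) and other plasma-membrane carriers (−0.15) to its left.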

How the data were processed

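RNA was extracted from shControl and shYEATS2 BICR10 cells with TRIzol, and poly(A) RNA libraries were made with a stranded kit and sequenced as read pairs. STAR was the aligner (genome build GRCh38) and HTSeq the counter used by the authors. The deposited values are raw counts per Ensembl gene without normalization, 1 file per library, and the annotation release and strand setting are not given in the sources used here. The tallies that name no gene (15.3% to 16.5% of pairs, including 7.64% to 8.57% outside any feature) were left out. Pairs with more than 1 alignment are among these tallies, so near-identical genes lose counts.

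Genes passing filterByExpr were normalized by TMM, and the quasi-likelihood test of edgeR 4.0.16 (R 4.3.3; glmQLFit, robust, then glmQLFTest) was applied, the libraries being grouped by their labels, with Benjamini-Hochberg adjustment over all 17058 genes and no minimum fold change. Each ± is the SD of 2 libraries. For the distances to SLC1A4 and the correlation of replicate differences, a prior count of 2 was added before taking log2 of CPM. The common biological coefficient of variation was 4.95%. Replicates differed by more than counting noise (chi-square per degree of freedom 5.95 in shControl, 5.39 in shYEATS2). Levels per kb use the union of exons in GENCODE 44. The fitting steps were tested on simulated data. Over the tested genes, the log2 differences between libraries 1 and 2 had a correlation of −0.018 between the groups. Whether the replicate numbers mark a shared batch is not given by the labels and cannot be settled by this value. DESeq2 1.42.0 and limma 3.58.1 gave alternatives, beside other scalings, filters, thinned counts, a replicate block and leaving out each library.

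The carriers and gene lists were chosen with earlier results of these data known. Named genes were the 10 carriers, YEATS2, ATF4, genes overlapping a carrier or nearly identical to it, the other plasma-membrane carriers with a mean of at least 10 CPM or the 3 largest called changes in each direction, the 2 largest called changes in each direction of each further list at that level with groups that did not overlap, and the 5 genes nearest to SLC1A4. Markers at or near 0, CDH1, SFN, NFE2L2, GSS and genes of the further lists with a mean below 10 CPM were named after their values had been seen. Of the hand-written lists, SAMTOR matched no gene and GGT1 matched more than 1, and both were left out. A further gene that this rule names is not reported here.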

Additional observations from a re-analysis of the deposited data

How the results depend on the processing

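The 8 carriers called higher and the 0 called lower were the counts under every alternative, apart from 7 higher without shControl replicate 1 (range 7 to 8 over the libraries left out). That was SLC38A2, whose log2 fold change ranged from 0.16 to 0.26 over these fits (0.16, edgeR adjusted p = 0.15, without shControl replicate 1). Where 1 library is left out, the lone library of a group is assumed to vary like the others. SLC7A11, −0.0059 and not called, turned to 0.00018 with DESeq2 size factors, 0.0074 with upper quartiles and 0.13 with library totals alone (adjusted p = 0.083), and ranged from −0.10 to 0.069 with a library left out. SLC43A1, −0.09 and not called, turned to 0.041 with library totals alone and ranged from −0.61 to 0.19. Of the other plasma-membrane carriers, 1 was called lower with library totals alone, 2 by the DESeq2 test and 1 in counts thinned to the smallest library, against 4 as reported and 2 to 4 with a library left out. Those called higher were 1, or 1 to 2 with a library left out. The log2 difference of the ratio of SLC3A2 to its light chains (−0.10) was 0.081 without length, −0.15 with SLC7A5 and SLC7A11 alone and −0.12 to −0.08 with a library left out. With a replicate block, 8 carriers were called higher and 0 lower, SLC1A4 was at 2.06 and SLC38A2 at 0.22, and no call of a carrier changed. Over all genes, 3857 were called higher and 4019 lower, against 5441 and 2567 with library totals alone, a scaling that put the median change over all genes at 0.13 in place of −0.01, and against 2392 and 2848 by the DESeq2 test, where 13.9% and 16.6% of 17165 genes were called. With 2 libraries in each group no outlier test could be made, and depth limits SLC43A1 above all, with 24 counts in shYEATS2 library 2.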
